A study of Mus musculus with 16 samples.

Results

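The genes described here encode the nuclear subunits of respiratory complexes II, III, IV and V in the lumbar spinal cord. They were chosen by name alone, as the array probes whose gene name is Sdha, Sdhb, Sdhc or Sdhd, or begins with Uqcr, with Cox and a digit from 4 to 8, or with Atp5. This gave 61 of 41174 probes and 45 gene names of 27962 names or unnamed probes, with 4 names in complex II, 7 in complex III, 18 in complex IV and 16 in complex V. Of these, 42 are subunits of their complex. The other 3, Cox4nb, Cox7a2l and Atp5s, match by name but are not subunits, and they were kept as members but left out of the summaries by complex.

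Male mice of a mixed B6SJL background were either SOD1G93A, carrying many copies of a mutant human SOD1 transgene that causes motor neuron disease, or their wild-type littermates without the transgene (NonTg). Both genotypes were taken at 40 and at 80 days, ages before symptoms, with 4 arrays for each of the 4 groups. Each array compared Cy3-labeled RNA of the whole lumbar cord with a Cy5-labeled reference, a pool of neonatal heart, kidney and liver RNA of both genotypes, and no dyes were swapped. The cord holds many cell types and motor neurons are a small part of it, so fewer cells of a type and less RNA per cell cannot be told apart here. The transgene itself was not analysed here.

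Complex II oxidises succinate and passes its electrons to ubiquinone. Complex III carries them from ubiquinol to cytochrome c, complex IV from cytochrome c to oxygen, and complex V (ATP synthase) uses the proton gradient so built to make ATP. Complex II is encoded wholly in the nucleus, whereas complexes III, IV and V also hold subunits of mitochondrial DNA, which form their catalytic or proton-conducting core. None of the 6 mitochondrial DNA genes looked for had a probe under its name on this array. Several complex IV subunits exist as tissue isoforms, among them Cox6a2, Cox7a1 and Cox8b of heart and skeletal muscle, and neurons depend heavily on oxidative phosphorylation for their ATP.

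The arrays had 46.1% to 55.3% of probes well above background in Cy3 and 57.1% to 70.0% in Cy5. Markers of the labelled tissue were read in Cy3, where 5 of 5 neuronal, 5 of 5 astrocyte and 4 of 4 oligodendrocyte markers on the array were well above background on 16 of 16 arrays, and of 4 motor neuron markers Slc5a7 and Slc18a3 were so on 16 arrays, Isl1 on 15 and Chat on 0. Each slide carried 1 array of each group, always in the same position, so slide position cannot be told apart from group. Skeletal muscle markers stood more than 0.5 above their mean over all arrays on 4 arrays, by 2.23 (log2, median of 6 markers) in SOD1G93A replicate 2 of 40 days, 0.72 in wild-type replicate 1, 0.90 in SOD1G93A replicate 2 and 0.81 in SOD1G93A replicate 4 of 80 days, and lay between -0.76 and 0.12 on the others. Among the markers Pvalb had a mean log2 ratio to the reference of 3.83, against -4.07 to -0.89 for the rest. It did not follow them on SOD1G93A replicate 2 of 40 days, with 3.91 there and 3.99, 4.01 and 3.73 on replicates 1, 3 and 4.

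All values below are log2 ratios of cord to reference, or differences of such ratios, and they rank genes only against that reference. For a gene with several probes the brightest stands for the gene. A gene entered the test where 3 or more of the 4 arrays of a group showed a cord signal well above background, and it was called at an unadjusted p under 0.05 of limma's moderated test, the threshold of the study's methods. Of the 45 names, 43 were tested, 40 of them subunits. The 2 left out were Cox4i2, the lung isoform of subunit 4, whose cord signal was above background on 0 of 16 arrays, and Cox8c, the testis isoform of subunit 8, above it on 1 of 16. The extra probes of Atp5f1 (A_52_P631514), Cox5a (A_52_P121110), Sdhc (A_52_P875481) and Uqcrq (A_52_P396522) were not tested either.

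The muscle isoforms of complex IV had the lowest cord ratios of all members. Cox6a2 lay between -5.72 and -4.63 on the 16 arrays, with a mean of -5.20 after normalization. Cox8b had a mean of -4.36 (-4.74 to -3.71) and Cox7a1 a mean of -2.75 (-2.96 to -2.35). Their cord signals were nevertheless well above background on 16 of 16 arrays, with median signals of 116.5 to 267.5 units for Cox6a2 and 78 to 178 for Cox8b. The reference signal of Cox6a2 was 64288 to 96747 units, a wider gap than the normalized ratio gives.

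The isoforms found in most tissues lay near the reference. Cox6a1, the partner of Cox6a2, had a mean of 0.23 (0.0040 to 0.43), Cox7a2 of -0.27 (-0.42 to -0.048) and Cox8a of 0.50 (0.28 to 0.69). In each of these 3 pairs the arrays of the common isoform and of the muscle isoform did not overlap. The subunit 6b pair was closer, at -0.0036 for Cox6b1 and -0.90 for Cox6b2, the isoform best known from testis. Cox4i1, the common subunit 4, stood at 0.24 (0.13 to 0.44). The 3 genes of the proton-carrying c ring, which encode 1 mature protein, spanned -0.56 for Atp5g1, -0.73 for Atp5g2 and -1.50 for Atp5g3.

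**Figure D1:**
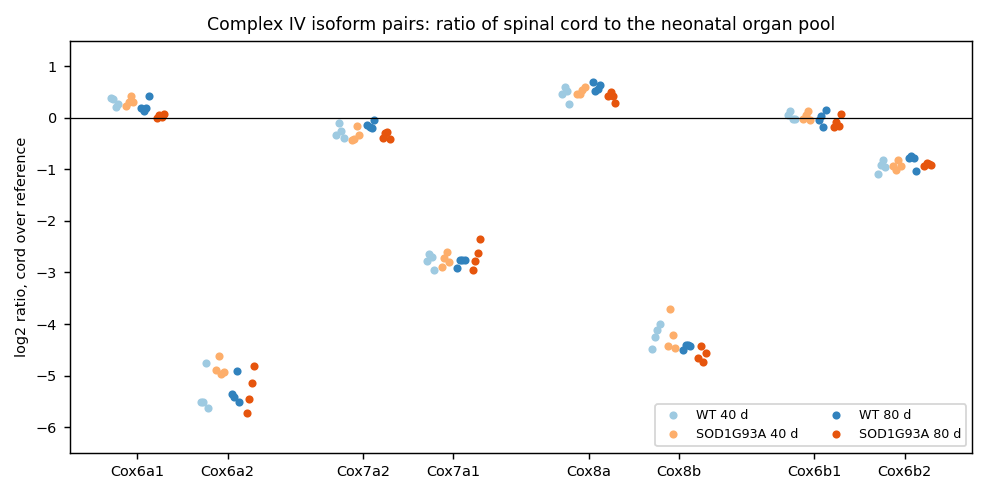
Log2 ratio of spinal cord to the neonatal reference for complex IV isoform pairs, with 1 point per array and colours for the 4 groups (n = 4 each). Cox6a2, Cox7a1 and Cox8b sit between -5.72 and -2.35 in every group, far below Cox6a1, Cox7a2 and Cox8a.

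Most other subunits lay somewhat below the reference. Of the 43 tested members 35 (81.4%) had a mean ratio under 0, against 46.4% of all 15205 genes tested, and the median member stood at -0.56. Sdha, the flavoprotein that binds succinate, was the highest subunit at 0.63, and among the names that are no subunit Atp5s stood at 1.24. These ratios are set by the within-array normalization: without it Cox4i1 moved from 0.24 to -2.62, Cox6a1 from 0.23 to -2.82 and Cox6a2 from -5.20 to -7.55, while the median of all probes was 0.059. The muscle isoform of each of the 3 pairs had the lower mean with and without it. The ratio was a description and was not tested.

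The widest spread among arrays belonged to Cox7c, a small complex IV subunit, whose within-group SD was 0.62 against a median of 0.099 over the tested members. Its ratio was -1.66 and -1.62 on wild-type replicates 1 and 4 of 40 days, -1.58 on SOD1G93A replicate 1 of 40 days, -1.63 and -1.28 on wild-type replicates 1 and 3 of 80 days, and -1.65 on SOD1G93A replicate 1 of 80 days. On the remaining arrays it lay between -0.74 and 0.09. Low and high arrays thus occurred in all 4 groups. The replicate 1 arrays, all on slide 1, were low in every group. The only other low arrays were wild-type replicate 4 of 40 days and wild-type replicate 3 of 80 days. A part of the slide was not tested. Neither genotype comparison called Cox7c (0.27 at 40 days, exact permutation p = 0.6, and -0.059 at 80 days, exact permutation p = 0.857). Its reference signal varied only from 16837 to 24596 units.

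At 40 days 1 subunit gene, Cox6a2, passed the test between the genotypes. Of 40 subunit genes 20 had higher and 20 lower ratios in SOD1G93A mice, with a median change of 0.0001 against -0.0024 over all 14829 genes. Cox6a2 was called higher and 0 were called lower, where 1.88% of all genes were called higher and 2.06% lower. The largest values of the other complexes were 0.13 for Sdhb and -0.13 for Sdhc in complex II, 0.10 for Uqcrq and -0.088 for Uqcrh in complex III, and 0.10 for Atp5b and -0.13 for Atp5c1 in complex V, none of them called. The lowest of complex IV was Cox6c at -0.088. Leaving out wild-type replicate 4 raised the count to 4, with 2 higher and 2 lower, and without normalization within arrays it was 3, with 1 higher and 2 lower and 33 of 40 values below 0.

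Cox6a2 was called higher in SOD1G93A mice of 40 days, as 1 of 40 subunit genes (2.5%), where 3.94% of all genes were called. Its ratios were -5.52, -5.52, -4.77 and -5.63 in wild-type and -4.90, -4.63, -4.96 and -4.93 in SOD1G93A mice. Wild-type replicate 3 lay within the range of the SOD1G93A arrays, and the other wild-type arrays lay below it. The change was 0.50 (SE 0.17, p = 0.0155, adjusted p = 0.997, exact permutation p = 0.114), or 41.8%, and it was called in all alternatives that held the cord signal, with 0.40 to 0.70. On slide 3 alone it was -0.20. Skeletal muscle markers, Pvalb among them, were higher at 40 days in 6 of 6 cases with a median of 0.75 and 0 called. Their median deviation ran from -0.76 to 0.12 in wild-type and from -0.54 to 2.23 in SOD1G93A mice. Without the SOD1G93A array of high muscle signal, Cox6a2 differed by 0.43 and was still called.

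At 80 days 10 of 40 subunit genes differed, 8 lower and 2 higher in SOD1G93A mice. The 8 that fell were Uqcrb, Uqcrh and Uqcr of complex III, Cox6a1, Cox7a2, Cox7b and Cox8a of complex IV, and Atp5j2 of complex V. All are small subunits that surround the catalytic core. In complex IV every tested gene lies outside that core, which mitochondrial DNA encodes. There the description followed from the choice of genes. The 2 that rose were Sdhc, a membrane anchor of complex II, and Atp5a1, the alpha subunit of the ATP synthase head. Over all 15042 genes 3.39% were called lower and 3.08% higher. The median change of the 40 was -0.074 against -0.0046 over all genes, and 28 of 40 values lay below 0 against 51.9% of all genes. No member had an adjusted p under 0.05 (0.659 to 0.68 for the 10), and the smallest over all genes was 0.0732.

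**Figure D2:**
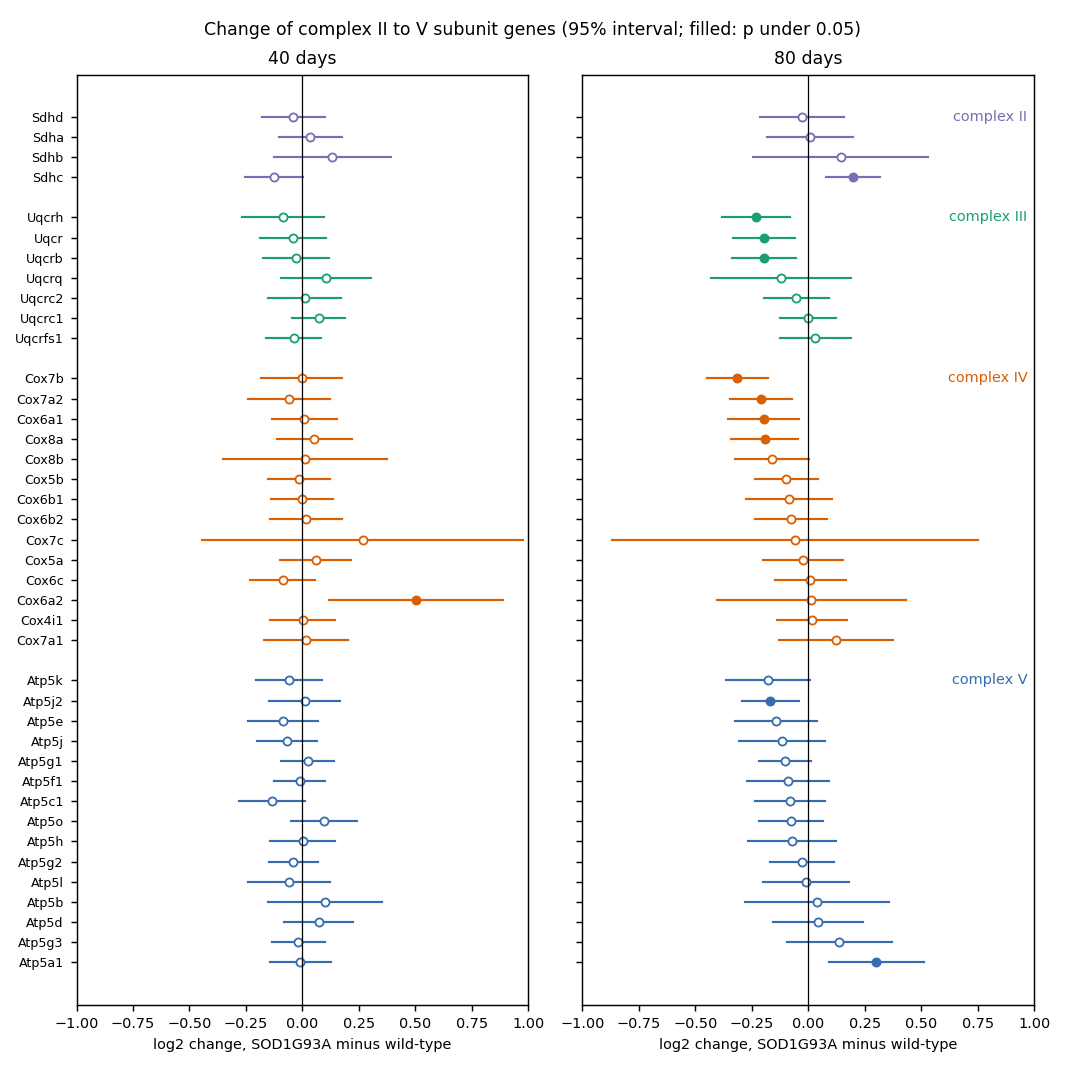
Log2 change, SOD1G93A minus wild-type, of 40 subunit genes at 40 days (left) and 80 days (right), with the 95% interval of limma's fit on 8 arrays. Filled points have p under 0.05: Cox6a2 at 40 days, and 8 lower and 2 higher genes at 80 days.

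The count and its split moved with the processing. It was 6 with the processed signals (2 higher, 4 lower), 4 in the series matrix (2 and 2), and 9 in the Cy3 channel alone (0 higher, 9 lower). Without normalization within arrays it was 3, namely Cox7b lower and Sdhc and Atp5a1 higher, with 22 of 40 values below 0. Leaving out each array in turn gave 10 to 12, and without the 4 arrays of high muscle signal 8 were called, 2 higher and 6 lower, of which 6 were among the 10. The calls lost there were Uqcrb (-0.16), Cox6a1 (-0.25), Cox7a2 (-0.20) and Cox8a (-0.15), against -0.19, -0.20, -0.21 and -0.19 with all arrays. This omission took out wild-type replicate 1 and SOD1G93A replicates 2 and 4 of 80 days. Fewer arrays and less muscle signal cannot be told apart as reasons for a lost call. In the reference channel alone 1 of 40 was called and it was none of the 10. The share of all genes called under each of these alternatives is not given here. From these member counts alone, a move of the count thus cannot be told from a change in the calling of all genes.

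A property of the arrays differed in part between the genotypes at 80 days. Over 2422 transcripts with a pair of probes at least 200 bases apart, the probe nearer the 5' end had the higher change in 60.2% at 80 days (median difference 0.027) and 55.7% at 40 days (0.014). The same difference taken on each array lay between -0.0050 and 0.038 in SOD1G93A and between -0.022 and -0.0021 in wild-type mice of 80 days. These ranges overlapped, and wild-type arrays of 40 days ran from -0.051 to 0.045. With this index as a covariate, chosen after seeing the data, 2 of 40 subunit genes were called at 80 days, Cox7b (-0.36) and Cox7a2, where 2.07% of all genes were called. A covariate that differs between the genotypes can also take up part of their difference, and the reason for the lower count was not tested.

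Complex IV held the largest fall. Cox7b, a small membrane subunit encoded on chromosome X (mm7, 101349174 to 101349233), had ratios of -0.59, -0.61, -0.55 and -0.69 in wild-type and -0.97, -0.87, -0.87 and -0.98 in SOD1G93A mice of 80 days. The groups did not overlap, and the gene fell by 19.5% (-0.31, SE 0.060, p = 0.000377, adjusted p = 0.659, exact permutation p = 0.0286, the smallest that 4 arrays against 4 allow). It was lower on all 4 slides, by -0.38 to -0.26. It stayed called at 80 days in every alternative that held the cord signal, with -0.36 to -0.24, and under each array left out. At 40 days its change was -0.0040 (exact permutation p = 0.914).

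Cox7a2, the common isoform of subunit 7a (chromosome 9, 79831804 to 79831863), fell on both of its probes, which start 12 bases apart and so share most of their sequence. Its ratios were -0.13, -0.17, -0.19 and -0.05 in wild-type and -0.40, -0.30, -0.27 and -0.41 in SOD1G93A mice. The groups did not overlap, with a change of -0.21 (SE 0.062, p = 0.00705, exact permutation p = 0.0286). The other probe changed by -0.30 (p = 0.000294, exact permutation p = 0.0286), from -0.16 to -0.12 in wild-type to -0.47 to -0.36 in SOD1G93A mice, and kept its call in all alternatives that held the cord signal. The gene's own call was lost without normalization within arrays (-0.14), in the series matrix (-0.16) and without the 4 arrays of high muscle signal (-0.20).

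Cox6a1, the common isoform of subunit 6a (chromosome 5, 114566550 to 114566609), had ratios of 0.19, 0.14, 0.20 and 0.42 in wild-type and 0.00, 0.05, 0.01 and 0.09 in SOD1G93A mice. It fell by 12.8% (-0.20, SE 0.071, p = 0.0188, exact permutation p = 0.0286) with no overlap, but wild-type replicate 4 stood above the rest and without it the change was -0.14 and not called. The reference channel itself moved by -0.12 for this probe. Cox8a, the common isoform of subunit 8 (chromosome 19, 7035098 to 7035157), had 0.69, 0.53, 0.56 and 0.64 in wild-type and 0.43, 0.50, 0.43 and 0.29 in SOD1G93A mice. It fell by 12.5% (-0.19, SE 0.067, p = 0.0162, exact permutation p = 0.0286), again with no overlap. Neither call held without normalization within arrays (-0.12 and -0.13), in the series matrix (-0.17 and -0.091) or without the 4 arrays of high muscle signal (-0.25 and -0.15).

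The other 10 tested subunits of complex IV were not called. The muscle isoforms that pair with Cox6a1, Cox7a2 and Cox8a had values of 0.014 for Cox6a2, 0.12 for Cox7a1 and -0.16 for Cox8b (exact permutation p = 0.914, 0.514 and 0.0571). Cox4i1, the largest nuclear subunit, had 0.016 (exact permutation p = 0.8) and Cox6b2 -0.076 (exact permutation p = 0.257). Cox5a, Cox5b, Cox6b1, Cox6c and Cox7c lay between -0.097 and 0.0086. Over the 14 subunits the median was -0.081, with 10 values below 0.

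In complex III 3 of 4 small subunits fell, and Uqcrq and the 3 larger proteins did not pass the test. Uqcrh, the acidic hinge protein that helps cytochrome c to dock (chromosome 4, 115443478 to 115443537), had ratios of -0.67, -0.53, -0.65 and -0.66 in wild-type and -0.84, -0.77, -0.81 and -1.01 in SOD1G93A mice, and fell by 14.8% with no overlap (-0.23, SE 0.068, p = 0.0067, exact permutation p = 0.0286). Uqcr, now named Uqcr11 (chromosome 10, 80191746 to 80191805), had -0.70, -0.65, -0.51 and -0.65 against -0.81, -0.78, -0.90 and -0.81, and fell by 12.7% with no overlap (-0.20, SE 0.062, p = 0.0103, exact permutation p = 0.0286). Uqcrb, the ubiquinone-binding subunit (chromosome 13, 64392762 to 64392821), had -0.33, -0.36, -0.46 and -0.33 against -0.45, -0.59, -0.64 and -0.58. Its groups touched at 1 array of each, and it fell by 12.6% (-0.19, SE 0.063, p = 0.0113, exact permutation p = 0.0571).

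The remaining small subunit Uqcrq had -0.12 (exact permutation p = 0.543). The core proteins had -0.0002 for Uqcrc1 and -0.054 for Uqcrc2, and the Rieske iron-sulfur protein Uqcrfs1 had 0.032 (exact permutation p = 1, 0.4 and 0.657). The median over the 7 genes was -0.12. The calls of Uqcrh, Uqcr and Uqcrb were each lost without normalization within arrays (-0.17, -0.13 and -0.12), in the series matrix (-0.12, -0.14 and -0.16) and with the index of probe position (-0.21, -0.098 and -0.12), and that of Uqcrb also without the 4 arrays of high muscle signal.

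In complex II 1 of 4 subunits was called. Sdhc (chromosome 1, 171099620 to 171099679), which binds ubiquinone together with Sdhd, had ratios of -0.44, -0.40, -0.38 and -0.44 in wild-type and -0.22, -0.26, -0.16 and -0.21 in SOD1G93A mice of 80 days. It rose by 14.7% with no overlap (0.20, SE 0.055, p = 0.0045, exact permutation p = 0.0286), on all 4 slides by 0.13 to 0.22. At 40 days its values were -0.20, -0.35, -0.31 and -0.26 in wild-type and -0.33, -0.39, -0.49 and -0.42 in SOD1G93A mice, a change of -0.13 that missed the threshold (p = 0.0524, exact permutation p = 0.0571). The rise at 80 days was not called in the Cy3 channel alone (0.16) or with the index of probe position (0.17).

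The iron-sulfur subunit Sdhb ranged from -0.71 to 0.12 in wild-type and from -0.34 to 0.26 in SOD1G93A mice, a change of 0.14 (exact permutation p = 0.514) over wide and overlapping groups. The anchor Sdhd had -1.33, -1.11, -1.19 and -0.95 against -1.07, -1.19, -1.21 and -1.22, a change of -0.027 (exact permutation p = 0.83). Sdha had 0.56, 0.64, 0.65 and 0.71 against 0.84, 0.67, 0.64 and 0.43 (a change of 0.0093, exact permutation p = 0.914). The median of the 4 was 0.076.

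In complex V the alpha subunit rose and a membrane subunit fell. Atp5a1 had ratios of -0.44, -0.55, -0.43 and -0.37 in wild-type and -0.24, -0.15, 0.12 and -0.32 in SOD1G93A mice. SOD1G93A replicate 3 was the highest and replicate 4 came near the wild-type arrays, with no overlap. The change was 0.30 or 23.1% (SE 0.095, p = 0.0098, exact permutation p = 0.0286), 0.050 on slide 4 and 0.20 to 0.55 on the others. It was not called in the Cy3 channel alone (0.29) or with the index of probe position (0.12).

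Atp5j2, the f subunit of the membrane part (chromosome 5, 144213224 to 144213283), had -0.17, -0.24, -0.28 and -0.23 in wild-type and -0.44, -0.33, -0.45 and -0.39 in SOD1G93A mice. It fell by 11.0% with no overlap (-0.17, SE 0.057, p = 0.0143, exact permutation p = 0.0286). The call was lost with the processed signals (-0.14), without normalization within arrays (-0.11), in the series matrix (-0.11) and with the index of probe position (-0.18). Of its membrane neighbours Atp5k had the lowest value of the complex at -0.18 (exact permutation p = 0.143) and Atp5l had -0.0090 (exact permutation p = 0.943).

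The other parts of the ATP synthase were not called. The 4 peripheral stalk genes Atp5f1, Atp5h, Atp5j and Atp5o, which hold the head still against the turning rotor, lay between -0.12 and -0.073. In the c ring Atp5g1 had -0.54, -0.56, -0.56 and -0.55 in wild-type and -0.63, -0.64, -0.71 and -0.64 in SOD1G93A mice, which did not overlap, but the change of -0.10 missed the threshold (p = 0.0773, exact permutation p = 0.0286). Atp5g2 had -0.029 and Atp5g3 0.14. In the head Atp5b had 0.037, Atp5c1 -0.083, Atp5d 0.043 and Atp5e -0.14. The median over the 15 genes was -0.076.

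Counted by overlap alone, 8 subunit genes lay lower and 2 higher in every SOD1G93A array than in every wild-type array of 80 days. Over all genes tested 2.45% did so in the lower and 1.75% in the higher direction. Atp5g1 took the place of Uqcrb among the 8, and the 2 were Sdhc and Atp5a1.

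**Figure D3:**
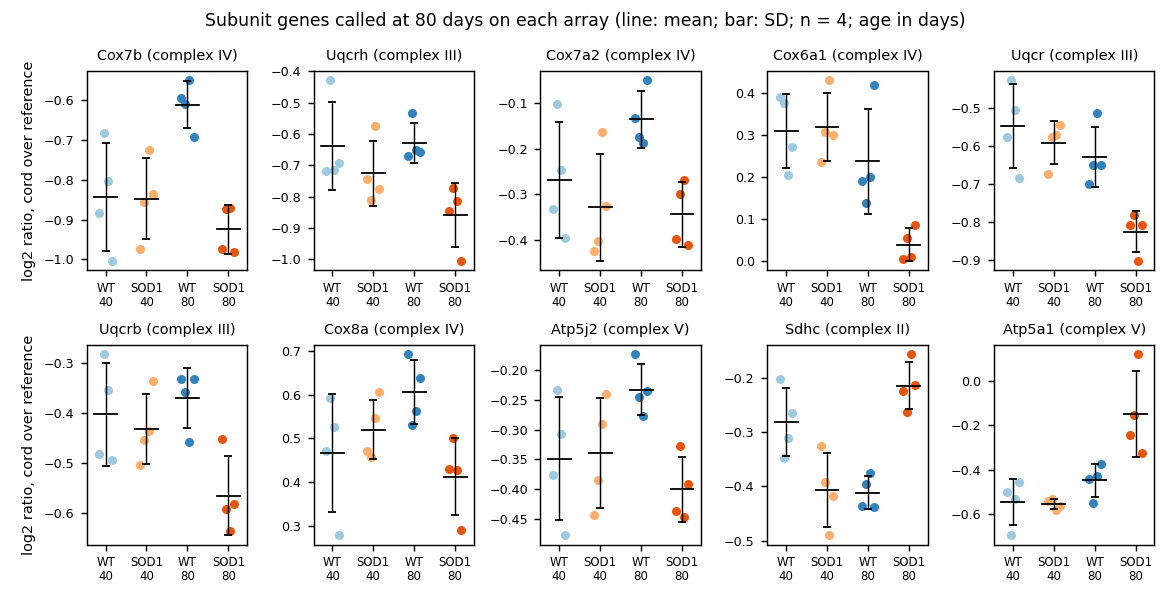
Log2 ratio of cord to reference on each array for the 10 genes called at 80 days, by genotype and age (SOD1 stands for SOD1G93A), with the mean as a line and the SD as a bar (n = 4). At 80 days only the Uqcrb groups overlap, while at 40 days all 10 genes have overlapping groups.

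The level of each complex on an array was summarised as the median, over its genes, of the deviation from the mean of 16 arrays. For complex III it lay between -0.10 and -0.048 in SOD1G93A mice of 80 days and between -0.032 and 0.088 on all other arrays. For complex IV it was -0.15 to -0.025 in that group, against -0.059 to 0.14 in wild-type mice of the same age, and for complex V -0.11 to -0.035 against -0.028 to 0.11. Complex II spread from -0.074 to 0.086 in SOD1G93A and from -0.092 to 0.14 in wild-type mice of 80 days. Complex III was thus the one whose arrays of this group lay apart from all others, complex V lay apart from wild-type mice of its age, and complexes II and IV overlapped. Without Cox6a2, Cox7a1 and Cox8b, complex IV lay apart from wild-type mice of its age too, at -0.070 to -0.034 against -0.029 to 0.15. It overlapped the arrays of 40 days, at -0.062 to 0.091 in wild-type and -0.040 to 0.089 in SOD1G93A mice.

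**Figure D4:**
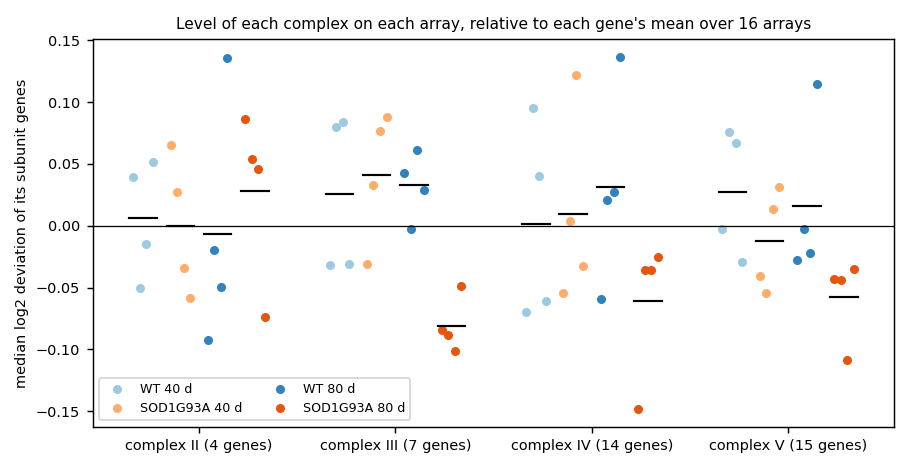
Median log2 deviation of the subunit genes of each complex on each array from their means over 16 arrays, with 1 point per array and the group mean as a line. The 4 SOD1G93A arrays of 80 days lie between -0.10 and -0.048 for complex III, below all other arrays.

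The probes of a gene did not always give 1 answer at 80 days, and 3 probes in the upstream part of Atp5b and Sdha gave higher values than the probe near the 3' end. Their sequences are shown because the result for these 2 genes depends on which is read, with that of Atp5j2, whose gene has 1 probe. Coordinates are those of the files (mm7), and the Atp5b probe A_52_P553841 spans an interruption in the genome. Their GC contents are 38.3% to 48.3%, around the median of 43.3% over all 61 member probes.
Atp5b A_52_P553841, chr10:127585810-127586488, plus strand: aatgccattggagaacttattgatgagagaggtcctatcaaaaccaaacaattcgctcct
Atp5b A_51_P207636, chr10:127586901-127586960, plus strand: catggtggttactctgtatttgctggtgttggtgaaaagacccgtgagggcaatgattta
Sdha A_52_P109503, chr13:71261221-71261280, minus strand: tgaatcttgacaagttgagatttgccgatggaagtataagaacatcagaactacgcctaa
Atp5j2 A_51_P224216, chr5:144213224-144213283, minus strand: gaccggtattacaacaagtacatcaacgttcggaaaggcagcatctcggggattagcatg

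Atp5b encodes the catalytic beta subunit of the head. On A_51_P207636 it had -0.06, -0.36, 0.00 and -0.40 in wild-type and 0.04, 0.20, 0.72 and -0.13 in SOD1G93A mice, overlapping groups with a change of 0.41 (SE 0.17, p = 0.0357, exact permutation p = 0.114). On A_52_P553841 the change was 0.34 (exact permutation p = 0.143), and on the brightest probe A_52_P328078, nearest the 3' end, 0.037 (exact permutation p = 0.8). The call of A_51_P207636 was lost on leaving out any of 4 arrays, with 0.24 without SOD1G93A replicate 3, 0.41 without SOD1G93A replicate 2, and 0.36 and 0.34 without wild-type replicates 2 and 4. With the index of probe position it was 0.038.

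Sdha behaved alike. On the upstream probe A_52_P109503 it had 0.01, 0.08, 0.32 and 0.16 in wild-type and 0.46, 0.45, 0.67 and 0.30 in SOD1G93A mice, a change of 0.33 (SE 0.092, p = 0.00472, exact permutation p = 0.0571) with 1 overlapping array in each group, whereas the probe that stands for the gene had 0.0093. The second probe of Atp5a1 had 0.18 (exact permutation p = 0.114) beside 0.30, and the upstream probe of Uqcrh -0.12 (exact permutation p = 0.143) beside -0.23. The probe pairs of Uqcrc1, Atp5f1, Atp5g2 and Atp5h, and those of the non-subunits Cox4nb and Atp5s, were not called on either probe. With the most upstream tested probe taken for each gene, 10 of 40 were called again, now 3 higher and 7 lower.

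**Figure D5:**
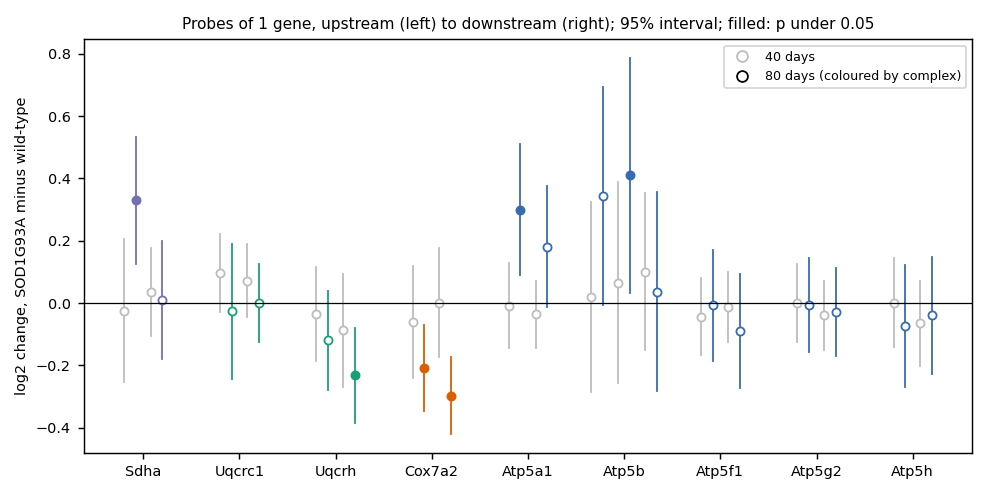
Log2 change, SOD1G93A minus wild-type, for each tested probe of 9 genes with several probes, ordered from the 5' (left) to the 3' end (right), with 95% intervals, in grey for 40 days and in the colour of the complex for 80 days. Filled points have p under 0.05, which at 80 days are 1 probe each of Sdha, Uqcrh, Atp5a1 and Atp5b and both probes of Cox7a2.

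Promoters of 4 genes that fell are shown to set them beside the motifs of nuclear respiratory factor 1 (NRF-1) and GA-binding protein (GABP, also NRF-2), activators known from many respiratory chain promoters. The NRF-1 core GCATGCGC and the GABP site CCGGAAG were searched on both strands, as GCGCATGC and CTTCCGG too. The window searched was the 250 bases before each RefSeq start of GRCm38.p6. Capitals mark the matches, and the searched bases are printed.
Cox6a1, chr5:115348959-115349208, minus strand: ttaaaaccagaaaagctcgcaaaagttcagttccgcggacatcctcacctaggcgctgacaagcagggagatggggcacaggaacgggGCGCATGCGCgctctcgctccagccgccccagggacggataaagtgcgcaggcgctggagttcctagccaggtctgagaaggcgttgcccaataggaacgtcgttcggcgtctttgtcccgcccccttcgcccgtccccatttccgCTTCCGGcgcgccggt
Uqcrh, chr4:116075071-116075320, minus strand: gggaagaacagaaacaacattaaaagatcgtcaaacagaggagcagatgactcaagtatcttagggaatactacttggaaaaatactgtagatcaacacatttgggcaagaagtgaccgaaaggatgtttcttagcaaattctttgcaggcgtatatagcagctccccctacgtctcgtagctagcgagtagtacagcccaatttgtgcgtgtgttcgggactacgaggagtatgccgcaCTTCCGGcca
Uqcr, chr10:80406822-80407071, minus strand: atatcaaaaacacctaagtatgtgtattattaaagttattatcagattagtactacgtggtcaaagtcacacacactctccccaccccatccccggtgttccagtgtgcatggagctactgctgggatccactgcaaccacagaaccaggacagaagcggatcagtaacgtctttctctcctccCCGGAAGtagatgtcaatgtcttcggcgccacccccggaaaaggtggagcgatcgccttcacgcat
Cox7b, chrX:106015450-106015699, plus strand: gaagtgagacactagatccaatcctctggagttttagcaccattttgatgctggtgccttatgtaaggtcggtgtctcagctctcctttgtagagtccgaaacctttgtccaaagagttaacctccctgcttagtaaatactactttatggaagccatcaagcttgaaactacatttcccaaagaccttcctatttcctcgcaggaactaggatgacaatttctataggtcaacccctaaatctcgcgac

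Of 45 names 34 had such a window and 11 had none. The GABP site was in 9 of 34 (26.5%), against 6.91% of 32851 windows, and the NRF-1 core in 5 of 34 (14.7%), against 2.26%. A member gene was counted if any of its windows held the string, whereas the other share counts single windows. These shares thus have unlike units. Among the 8 genes that fell 7 had a window, of which Cox6a1, Uqcr and Uqcrh held the GABP site and Cox6a1 alone the NRF-1 core, read there on both strands at 1 place. Cox7b held neither string. Uqcrb had no window. The matches describe letters in these windows and were not tested against the changes.

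The change of the genotype difference from 40 to 80 days was called for 5 of 40 subunits. It was lower for Cox7b (-0.31, SE 0.098, p = 0.0062, exact permutation p = 0.0351), Cox8a (-0.25, p = 0.0235, exact p = 0.0273) and Cox6a1 (-0.21, p = 0.0421, exact p = 0.0494). It was higher for Sdhc (0.32, SE 0.072, p = 0.000338, exact permutation p = 0.000816) and Atp5a1 (0.31, p = 0.0161, exact p = 0.0302). Over all 15205 genes 3.14% were called lower and 2.72% higher. The smallest exact p that 4900 relabellings allow is 0.000408, and the adjusted p of Sdhc was 0.526. These relabellings shuffle genotype within each age. Their exact p therefore tests for no genotype effect at either age, not for equal effects at both ages. The median over the 40 was -0.076, but 0.047 without normalization within arrays and -0.0052 in the series matrix. Uqcrb, Uqcrh, Uqcr, Cox7a2 and Atp5j2, called at 80 days alone, were not shown to differ between the ages on the probe that stands for the gene. The call of Cox6a1 was lost on leaving out any of 9 arrays (down to -0.15 without wild-type replicate 4 of 80 days) and that of Cox8a on leaving out any of 3 (down to -0.18 without wild-type replicate 4 of 40 days). Both were also lost without the 4 arrays of high muscle signal (-0.26 and -0.22). The count was 11 without wild-type replicate 2 of 40 days, and 3 without wild-type replicate 4 or SOD1G93A replicate 4 of 40 days.

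With age, wild-type mice changed in few subunits. From 40 to 80 days Cox7b rose by 17.5% (0.23, SE 0.070, p = 0.00408, exact permutation p = 0.0571) and Sdhc fell by 8.67% (-0.13, SE 0.051, p = 0.0199, exact p = 0.0286), 1 of 40 in each direction where 7.39% of all genes rose and 8.17% fell. Their adjusted p were 0.116 and 0.226. The call of Sdhc was lost without wild-type replicate 1 of 40 days (-0.10) and without the 4 arrays of high muscle signal (-0.12). The count was 5 without wild-type replicate 2 of 40 days, 8 without wild-type replicate 4 of 80 days and 9, all lower, without normalization within arrays.

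SOD1G93A mice changed in 10 of 40, 3 higher and 7 lower, where 9.21% of all genes rose and 8.27% fell. Atp5a1 rose by 32.6% (0.41, SE 0.081, p = 0.000126, exact permutation p = 0.0286) and was the only member with an adjusted p under 0.05 (0.0207). Its second probe A_51_P402496 rose by 14.6% (0.20, adjusted p = 0.177, exact permutation p = 0.143). Sdhc rose by 14.3% (0.19, exact permutation p = 0.0286) and Cox6c by 11.4% (0.16, exact permutation p = 0.0571). Cox6a1 fell by 17.6% (-0.28, p = 0.000634, adjusted p = 0.0523, exact permutation p = 0.0286) and Uqcr by 14.9% (-0.23, exact permutation p = 0.0286). Atp5g1 (-0.15), Atp5o (-0.15) and Uqcrb (-0.13) fell too, as did the muscle isoforms Cox8b (-0.40) and Cox6a2 (-0.43). The 7 genes of complex III chosen by name all had values below 0. Of 9 other subunits of these complexes and electron carriers, which the name rule leaves out, Cyc1 was called higher and Cycs lower. The calls of Atp5o, Uqcrb, Cox6a2 and Cox6c were each lost on leaving out any of several arrays, and without the 4 arrays of high muscle signal. Without SOD1G93A replicate 2 of 40 days, the array of the highest muscle markers, Cox8b changed by -0.23. Atp5o changed by -0.12 without SOD1G93A replicate 3 of 80 days, Uqcrb by -0.10 without SOD1G93A replicate 4 of 40 days, Cox6a2 by -0.28 without SOD1G93A replicate 1 of 80 days and Cox6c by 0.12 without SOD1G93A replicate 1 of 40 days.

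These comparisons share arrays. The 4 wild-type arrays of 80 days enter both the genotype difference at 80 days and the age difference of wild-type mice. For Cox7b the values side by side were -0.31 between genotypes at 80 days, 0.23 with age in wild-type and -0.076 with age in SOD1G93A mice. For Sdhc they were 0.20, -0.13 and 0.19, and for Atp5a1 0.30, 0.098 and 0.41.

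Genes with related tasks were counted in the same fits. Of 37 complex I subunits, 8 were called lower and 0 higher at 80 days (median -0.066) and 2 lower and 0 higher at 40 days (median -0.017). Of 9 other subunits and electron carriers of the chain, 1 was called at 80 days, Atpif1, the ATP synthase inhibitor, which fell, and 0 at 40 days, with medians of -0.070 at 80 and -0.060 at 40 days. Assembly factors had 0 called of 15 at both ages, with medians of -0.028 at 40 and 0.0002 at 80 days. Among 12 regulators of mitochondrial biogenesis, Polrmt, the mitochondrial RNA polymerase, was called higher at 80 days and 0 were called at 40 days. Of 14 genes that follow mitochondrial mass, such as the porins and citrate synthase, 0 were called at either age, with medians of 0.029 at 40 and 0.069 at 80 days. The lists were not tested against each other.

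Cell type markers were read beside these values. At 80 days 1 of 5 neuronal markers (Syt1) fell and 1 of 4 oligodendrocyte markers (Mog) rose. Of the others, 0 of 3 motor neuron, 0 of 5 astrocyte and 0 of 5 microglial markers were called. Of the skeletal muscle markers 0 of 6 were called (median 0.33, with Pvalb at -0.13). At 40 days 2 of 5 astrocyte markers (Gfap, Slc1a3) rose. Their part in the subunit changes was not tested.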

How the data were processed

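RNA of lumbar spinal cord (Cy3) and of a pooled neonatal reference (Cy5) was hybridised to 16 two-colour arrays, and samples were grouped by genotype and age in their labels. The authors read the scans with Agilent Feature Extraction 9.5.3.1, per the labels. The deposited spot files hold intensity values on a linear scale, not normalized, beside local backgrounds, processed signals and spot flags. The series matrix, with log2 values normalized by the authors in limma, served as an alternative.

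Median signals were used, and local backgrounds more than 20 units above their spot were reset to the array median. Background correction used normexp (offset 50), and normalization used loess within and Aquantile between arrays, giving log2 Cy3 over Cy5. Control spots and outlier-flagged spots were left out. This removed 1 member spot (Atp5b A_52_P328078, wild-type replicate 4 of 40 days), so that this probe was fitted on the other 3 arrays of the group. No member spot was saturated (0 of 61 probes). Signals near background shrink toward the offset, and depth in the sense of reads does not exist, so the 4 arrays per group limit the precision. Biological replicates are named as such in the labels.

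Genotypes were compared within an age by lmFit and eBayes (limma 3.58.1, R 4.3.3, the package data.table in version 1.17.8, statmod 1.5.0) on 8 arrays, and the interaction and the ages on 16, over all probes that passed the filter. Calls used an unadjusted two-sided p under 0.05, and Benjamini-Hochberg values and exact permutation tests over 70 splits of the arrays were added. The fits were tested on simulated data. Plots used Python 3.11.15 with pandas 2.3.3 and matplotlib 3.10.9.

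The members and lists were chosen with earlier results of these data known. Genes described singly were those called, the Sdh genes, the extremes of each complex, the subunits the study lists under oxidative phosphorylation, and the isoform sets. Their values are not given for every comparison. Alternatives covered background correction, normalization, processed signals, the Cy3 channel, the series matrix, filters, outlier spots, the arrays fitted, array weights, a variance trend, leaving out each array, and the replicate block. After seeing the data, 4 more were added, the index of probe position, the Cy5 channel, the most upstream probe and the omission of 4 arrays with a muscle marker score over 0.5. Gene names and 56 probe accessions were matched to RefSeq tables. Protein sequences were not used here, and the oligodendrocyte markers at 40 days are not reported here.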

Additional observations from a re-analysis of the deposited data

Results flagged for a closer look

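Of 171 groups of 4 arrays, 14 (8.19%) held an array far from the others by Dixon's test at the 95% level, where chance gives about 1 in 20. On wild-type replicate 4 of 40 days these were Sdhd (-1.26, the others -1.06 to -1.03), Atp5d (-0.28, the others -0.55 to -0.54) and Atp5g2 (-0.78, the others -0.71 to -0.69). On wild-type replicate 3 of 40 days they were Cox4i1 (0.44), Cox6a2 (-4.77) and Atp5s (1.12), and on replicate 2 Uqcrh (-0.43). At 80 days wild-type replicate 1 stood apart for Cox7a1 (-2.90) and Atp5j (-0.80, the others -0.51 to -0.50), replicate 2 for Uqcrh (-0.53) and replicate 4 for Cox4i1 (0.38) and Atp5o (-0.63). Among SOD1G93A mice Cox7c stood apart on replicate 1 of 40 days (-1.58, the others -0.60 to -0.53) and Atp5g1 on replicate 3 of 80 days (-0.71).

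The genotype effect differed between the ages for 8 probes by the interaction term of limma's fit on 16 arrays, without adjustment for the number of probes tested. It was lower at 80 days for Cox7b (-0.31), Cox7a2 on A_52_P37894 (-0.30, exact permutation p = 0.0273), Cox8a (-0.25) and Cox6a1 (-0.21). It was higher for Sdha on A_52_P109503 (0.35, exact permutation p = 0.0612), Sdhc (0.32) and Atp5a1 on A_52_P674489 (0.31) and A_51_P402496 (0.22, exact permutation p = 0.0502). These exact permutation p come from relabelling within each age, with the limit given above.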

How the results depend on the processing

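Single genes kept their direction in all 1077 values of 39 called results, and 179 of these values lost the call. The results were chosen by their call in these same data, so the kept direction is no independent check. For an age difference, leaving out an array of the other genotype cannot move the value. The number of called subunits at 40 days (1) was 2 without background subtraction, without a filter on dim probes, with all 16 arrays in the fit, with array weights, with a variance trend and with the index of probe position, 3 without normalization within arrays and 3 in the series matrix, and 1 to 4 with each array left out. At 80 days (10) it was 6 with processed signals, 3 without normalization within arrays, 4 in the series matrix, 2 with the index and 1 in the Cy5 channel alone, and 10 to 12 with each array left out. The interaction (5) gave 3 with processed signals, 2 without normalization within arrays and 2 in the Cy3 channel alone, 3 without the 4 arrays of high muscle signal, and 3 to 11 with each array left out. Age in wild-type mice (2) gave 4 with processed signals, 4 in the Cy3 channel alone, 9 without normalization within arrays, 5 in the series matrix, 1 without the muscle arrays, and 2 to 8 with each array left out, and age in SOD1G93A mice (10) gave 6 without normalization within arrays and 7 to 11 with each array left out. The cause was not tested. Except for the index of probe position at 80 days, these counts and those above stand without the share of all genes called there. Median changes without normalization within arrays were -0.066 at 40 days, -0.012 at 80 days, 0.047 for the interaction and -0.088 for age in wild-type mice, and the interaction in the series matrix was -0.0052. With each array left out they were -0.025 to 0.0083, -0.093 to -0.045, -0.11 to -0.047, -0.015 to 0.023 and, for age in SOD1G93A mice, -0.060 to -0.033. Median ratios to the reference without normalization within arrays were, in the order wild-type and SOD1G93A of 40 days, then of 80 days, -2.48, -2.55, -2.62 and -2.40 for complex II, -3.20, -3.32, -3.39 and -3.45 for complex III, -2.84, -2.86, -2.89 and -2.98 for complex IV, and -3.28, -3.35, -3.36 and -3.35 for complex V. Without background subtraction they were -0.84 for complex III in SOD1G93A mice of 80 days and -0.65 for complex V in wild-type mice of 40 days. Replicate numbers mark the slide. Deviations of arrays on 1 slide correlated by -0.065 to 0.12 at 40 days, 0.00004 to 0.20 at 80 days, -0.044 to 0.019 between ages in wild-type and 0.089 to 0.23 in SOD1G93A mice, where each array correlated best with its own number, a hint from the data and not the design. With the replicate block the counts were 1, 11, 4, 2 and 10, in the order of the comparisons above. Signals near background, as for Cox6a2 and Cox8b, have ratios that the offset draws toward 0.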
